A study of Mus musculus with 2 samples.

Results

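The genes of the actin, myosin and tubulin cytoskeleton were examined in CD5+ gamma delta T cells of LAT3YF and wildtype mice. Members were all genes whose platform symbol begins with the usual stems of actins, alpha-actinins, actin-related proteins, Arp2/3 subunits, actin monomer and filament regulators, tropomyosins, myosins and tubulins. This gave 28 of the 4331 genes named by single-gene probes, measured by 31 probes. The 28 comprised 3 actins, 1 alpha-actinin, 4 Arp2/3 subunits, 1 other actin-related protein and 6 monomer and filament regulators. They further comprised 1 tropomyosin, 5 myosin light chains or light chain kinases and 6 tubulins or gamma tubulin complex genes. The last, Cflar, matched by its letters alone, since it encodes the caspase-8 regulator FLIP and not a cytoskeletal protein. Myosin heavy chains, profilins and Cap1 had no named probe and were not analysed here.

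Gamma delta T cells were sorted from spleens, per the labels, with anti-CD5 beads and a FACSDiva instrument, from wildtype mice or from mice with the LAT3YF allele. LAT is the adaptor through which the T cell receptor reaches its downstream enzymes, and 3YF stands for tyrosine-to-phenylalanine changes in that protein. Total RNA of both genotypes was hybridised together on 2 arrays with the dyes exchanged, the + polarity and the - polarity ratio profile. The labels give no strain, age, treatment or number of animals, and no second extract, so the pair was treated as 1 replicate and carries no check by independent animals. Values are log10 ratios of the populations, with the - polarity sign turned, and the SD is over the 2 arrays. The base 10 is an assumption. The labels do not settle which population is the numerator. A positive value therefore marks the same population throughout, but that population is not named, and every statement holds equally with the genotypes exchanged.

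Actin exists as monomers and as filaments. In T cells its branched networks, made by the Arp2/3 complex, spread the contact with an antigen-presenting cell, and non-muscle myosin II contracts the actin behind them. LAT signalling feeds into this machinery through adaptors that recruit actin regulators. Microtubules, polymers of alpha and beta tubulin that start from gamma tubulin rings, turn the centrosome towards the contact and form the spindle of dividing cells.

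Most members had ratios close to 1. Of the 28, 1 was called positive, Actn4, and 0 were called negative, where a call needs a mean of at least 2-fold and the same sign on both arrays. Over all 4331 genes, 3.72% were called positive, 5.03% negative and 8.75% in either direction, so 1 of 28 (3.57%) is near the background for positive calls. The mean ratio was within 1.2-fold of equality for 19 members (67.9%), against 52.6% of all genes. The members' median was 0.0359 (0.0310 for + polarity alone, 0.0422 for - polarity alone), beside 0.00231 for all named genes. Past 1.5-fold with agreeing signs were 3 members (10.7%), Actn4, Myl6 and Acta1, against 17.9% of all genes. A mean above 0 was found for 20 members and below 0 for 8. Signs were alike on both arrays for 20 members, positive for 15 (53.6%) and negative for 5 (17.9%), against 30.2% and 29.3% of all genes. These counts describe the arrays and have no replicate check. In bulk RNA, more cells of a kind and more transcript per cell cannot be told apart.

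**Figure D1:**
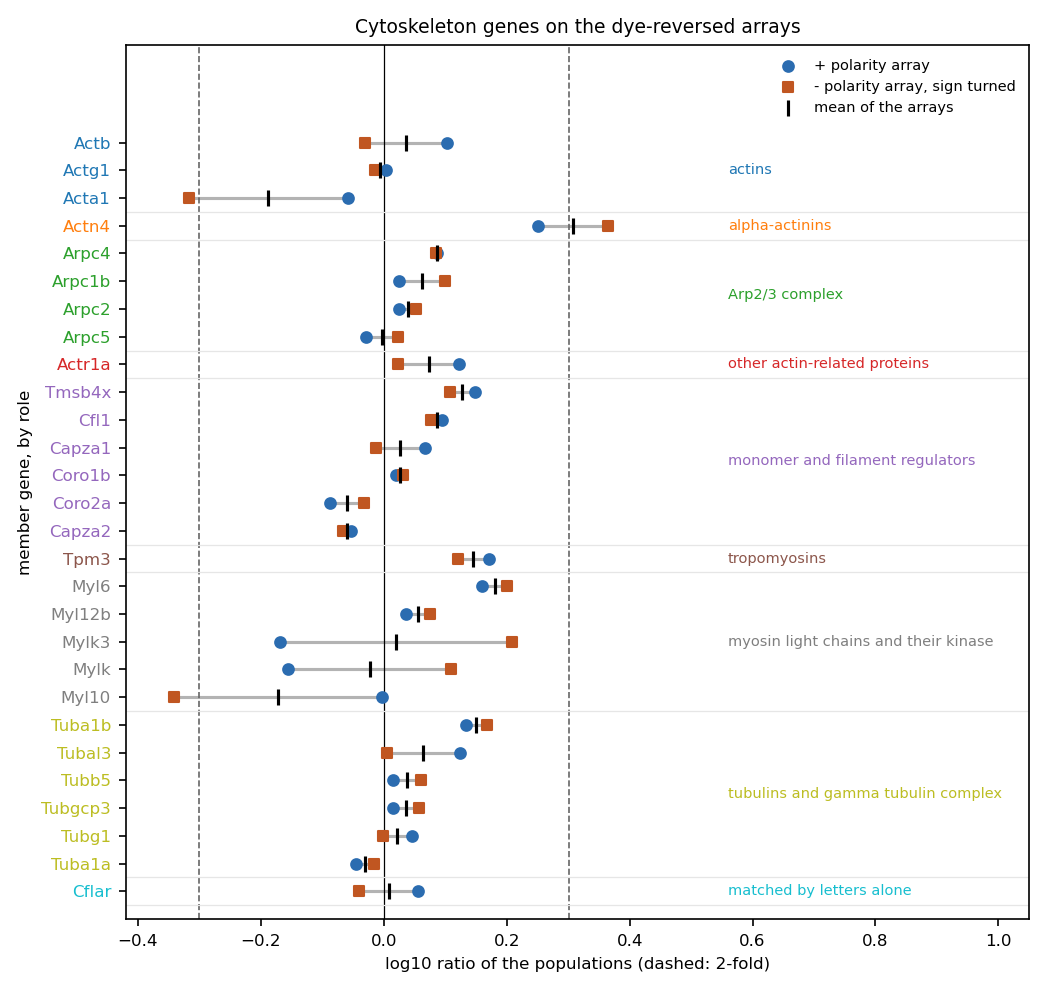
Log10 ratio of the populations for the 28 members, grouped by role (label colour and text at the right). Circles are the + polarity array, squares the - polarity array with its sign turned, bars the mean; Actn4 is the member whose mean lies beyond 2-fold (dashed lines), while Acta1 and Myl10 pass it on the - polarity array alone.

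Actn4 encodes a non-muscle alpha-actinin, which cross-links actin filaments into bundles. Its log10 ratio was 0.251 (1.78-fold, + polarity) and 0.365 (2.32-fold, - polarity). The mean was 0.308 ± 0.081 (2.03-fold), 150th from the top among 4331 genes. The value thus lay just past the threshold in the mean, and below it on the + polarity array. It rests on 1 probe, designed on an expressed sequence tag. Had the deposited values been log2, the fold would be 1.24, and 1.36 for natural logs.

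The next members on the positive side were below 2-fold, and each had close values on both arrays. Myl6, the essential light chain of non-muscle and smooth muscle myosin II, had 0.160 (+ polarity) and 0.201 (- polarity). Its mean of 0.180 ± 0.029 is 1.51-fold. Tuba1b, a widely expressed alpha tubulin, had 0.133 and 0.168, with a mean of 0.151 ± 0.025 (1.42-fold). Tpm3, a tropomyosin that coats actin filaments, had 0.171 and 0.121, a mean of 0.146 ± 0.035 (1.40-fold). Tmsb4x, thymosin beta 4, which holds actin as monomers, had 0.148 and 0.107, a mean of 0.128 ± 0.029 (1.34-fold). For these 4 genes the mean was several times the SD over the arrays. They ranked between 366th and 620th from the top of all genes, so they are not extreme in this data set.

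The 3 actins shared no direction on both arrays, although all 3 were below 0 on the - polarity array. Actb, a cytoplasmic actin and common reference gene, had 0.103 on the + polarity and -0.0311 on the - polarity array, a mean of 0.0360 ± 0.095. Actg1, the other cytoplasmic actin, had 0.00353 and -0.0148, a mean of -0.00564 ± 0.013 (1.01-fold). This small SD is of the average of 2 probes, whose own SDs were 0.090 and 0.064. Both cytoplasmic actins had opposite signs on the arrays, and their difference of 0.0416 ± 0.082 was smaller than its spread. Acta1, the actin of skeletal muscle fibres, had -0.0590 and -0.317, a mean of -0.188 ± 0.18 (1.54-fold). It is the lowest member, but its ratio was 1.15-fold for + polarity and 2.08-fold for - polarity, so the size rests on the latter. Of the other skeletal muscle markers listed, Ckm, the muscle creatine kinase, was measured, and its mean was -0.00552 ± 0.010.

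Of the 3 members with 2 probes, Actb and Tubb5 had probes with unlike means. The higher Actb probe had a mean of 0.117 ± 0.12 and the lower -0.0449 ± 0.069, a gap of 0.162 ± 0.053 (1.45-fold). The Actg1 probes differed by 0.0123 ± 0.15 in the mean, less than the spread between arrays. On each array, however, they had opposite signs. One probe had 0.0520 and -0.0756, and the other -0.0450 and 0.0460, so their array differences offset each other in the gene's average. The largest gap was in Tubb5, a beta tubulin of lymphocytes and many other cells. Its higher probe had 0.164 and 0.165 on the arrays, and its lower probe -0.133 and -0.0426. Their difference of 0.252 ± 0.063 (1.79-fold) exceeded the gene's own mean of 0.0385 ± 0.032. Actins and tubulins are encoded by near-identical paralogs, and probes can share signal between them, so the assignment to a single gene is uncertain; cross-hybridisation was not tested.

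**Figure D2:**
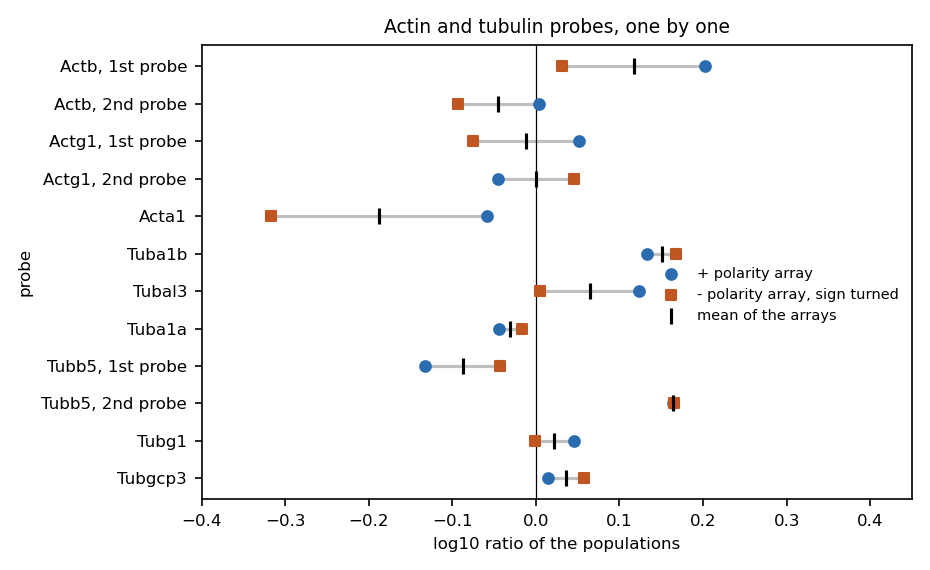
Log10 ratio of each actin and tubulin probe on the + polarity array (circles) and the - polarity array with its sign turned (squares), with their mean (bars). The Tubb5 probes lie on opposite sides of 0 on both arrays, and the alpha tubulins Tuba1b and Tuba1a are separated on both.

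Among the tubulin genes, 5 of 6 means were above 0 and the median was 0.0372. With the Tubb5 probe nearest 0 in place of the mean of its probes, it was 4 of 6. Tuba1a, an alpha tubulin best known from neurons, had -0.0447 and -0.0167, a mean of -0.0307 ± 0.020. Tuba1b exceeded Tuba1a by 0.178 on the + polarity and 0.185 on the - polarity array, 0.181 ± 0.0049 in the mean (1.52-fold). This separation of related isotypes was alike on both arrays, although paralog cross-hybridisation applies here too. Tubal3, an alpha tubulin-like gene, had 0.124 and 0.00469, a mean of 0.0643 ± 0.084, less than its spread. Tubg1, gamma tubulin itself, was at 0.0219 ± 0.033, and Tubgcp3, a subunit of the ring that nucleates microtubules, at 0.0358 ± 0.031. Neither gene of the nucleating complex was further than 1.09-fold from equality.

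The Arp2/3 complex nucleates branched actin filaments, and 4 of its subunits were measured. Arpc4 had 0.0870 and 0.0852 (mean 0.0861 ± 0.0012, 1.22-fold), the closest agreement between arrays of any member. Arpc1b had 0.0253 and 0.0997 (mean 0.0625 ± 0.053), and Arpc2 had 0.0254 and 0.0524 (mean 0.0389 ± 0.019). Arpc5 had -0.0289 and 0.0237 (mean -0.00259 ± 0.037). The subunits thus covered from 1.01-fold to 1.22-fold, and none was called. The gap between Arpc4 and Arpc5 was 0.0887 ± 0.038. Actr1a, the actin-related protein that forms the dynactin filament, had 0.122 and 0.0233, a mean of 0.0728 ± 0.070 (1.18-fold).

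The 6 monomer and filament regulators had a median of 0.0265 and none was called. Below Tmsb4x came Cfl1, cofilin, which severs and disassembles filaments, with 0.0953 and 0.0773, a mean of 0.0863 ± 0.013 (1.22-fold). The alpha subunits of the capping protein, which blocks the growing filament end, had means on opposite sides of 0. Capza1 had 0.0664 and -0.0129, a mean of 0.0268 ± 0.056 that was smaller than its spread. Capza2 was at -0.0593 ± 0.0090, below Capza1 by 0.0861 ± 0.047. On the - polarity array both subunits were below 0. The coronins were on opposite sides of 0 on each array. Coro1b, which acts on Arp2/3 branches, was at 0.0262 ± 0.0083 and Coro2a at -0.0593 ± 0.039, a difference of 0.0854 ± 0.031. Each of these 4 genes was within 1.15-fold of equality.

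The light chains and light chain kinases of myosin were the most scattered group. Myl12b, a regulatory light chain of non-muscle myosin II, had 0.0366 and 0.0750, a mean of 0.0558 ± 0.027 (1.14-fold). Myl6 exceeded it by 0.123 and 0.126 on the arrays, 0.125 ± 0.0018 in the mean. Myl10, another regulatory light chain, had -0.00321 (+ polarity) and -0.342 (- polarity, 2.20-fold). Its mean of -0.172 ± 0.24 was smaller than its spread. The kinases that phosphorylate regulatory light chains had opposite signs on the arrays. Mylk, the kinase of smooth muscle and non-muscle cells, had -0.155 and 0.110, a mean of -0.0226 ± 0.19. Mylk3, the cardiac form, had -0.169 and 0.208, a mean of 0.0195 ± 0.27. Mylk3 was the member whose dye component, the part of the ratio that changes sign with the dyes, was past 1.5-fold with opposite signs (-0.189). The arrays thus differed more for Myl10, Mylk, Mylk3 and Acta1 than for any other member. Cflar was also of opposite sign, at 0.00784 ± 0.067.

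Across the members, 18 of 28 (64.3%) had a mean larger than the SD over the arrays, against 52.2% of all genes. The median size of the dye component was 0.0241 for members and 0.0410 for all genes. The ratios on both arrays correlated across the 28 members with Pearson r = 0.382, and across all genes with r = 0.403. The Spearman coefficients were 0.414 for members and 0.240 for all genes, the opposite order. These are correlations across genes, which share the same RNA and are not independent replicates.

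**Figure D3:**
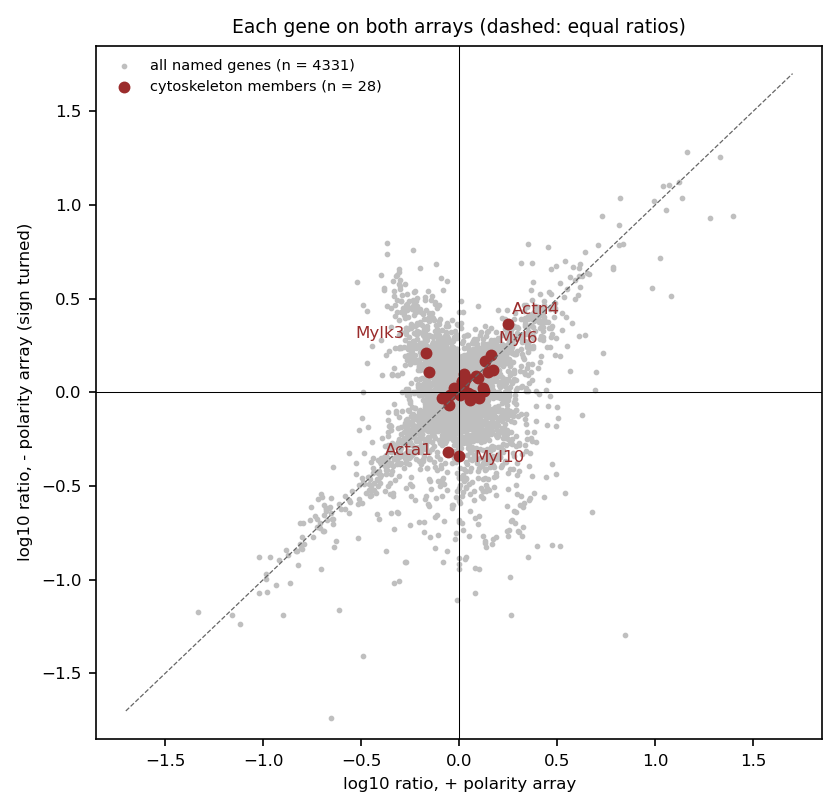
Log10 ratio of each gene on the + polarity array (horizontal) against the - polarity array with its sign turned (vertical), for all 4331 named genes (grey) and the 28 members (red). The members sit near the origin; Actn4 and Myl6 lie near the line of equal ratios, whereas Acta1, Myl10 and Mylk3 lie away from it.

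Promoter sequence was available for 25 of the 28 members, and Actb, Coro1b and Tubg1 were not in the table. Serum response factor, which responds to the pool of free actin monomers, binds the CArG box in actin promoters. The 250 bases before each transcription start were searched on both strands for the CArG box. It was present for 4 of 25 members (16.0%), against 439 of 27025 genes (1.62%) in the whole table. The 60-base windows are shown because they join genes from the lowest member, Acta1, to the second highest, Myl6. The sequences are from RefSeq on GRCm38.p6, 5′ to 3′ on the gene's strand, with the CArG box in capitals.
Acta1: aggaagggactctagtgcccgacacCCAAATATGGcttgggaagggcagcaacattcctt
Actg1: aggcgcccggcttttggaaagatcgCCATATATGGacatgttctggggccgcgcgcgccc
Arpc4: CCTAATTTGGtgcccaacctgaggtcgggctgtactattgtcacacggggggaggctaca
Myl6: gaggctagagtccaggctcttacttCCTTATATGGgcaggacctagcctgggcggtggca

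The windows lie at chr8:123894814-123894873 (minus strand, Acta1), chr11:120348551-120348610 (minus strand, Actg1), chr6:113377863-113377922 (plus strand, Arpc4) and chr10:128493025-128493084 (minus strand, Myl6). The first base of the box was 73 bases upstream of the start in Acta1, 90 in Actg1, 250 in Arpc4 and 50 in Myl6. In Myl6 it was found at 1 of 2 listed starts. The mean log10 ratios of these genes were -0.188 ± 0.18 (Acta1), -0.00564 ± 0.013 (Actg1), 0.0861 ± 0.0012 (Arpc4) and 0.180 ± 0.029 (Myl6). For Actg1 the SD is of the average of 2 probes, each of which differed more between the arrays. The carriers of the box did not share a direction. Srf, the gene of serum response factor, was at -0.0268 ± 0.010. A match is a description of these letters and says nothing about binding.

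Genes that act on the same filaments were taken from 7 lists written from textbook knowledge. They held 65 measured genes that are not members. Of these, 6 were called positive (9.23%) and 1 negative (1.54%), beside 3.72% and 5.03% of all genes, and their median was 0.0202. Of 12 measured microtubule motor genes, 4 were called positive and 0 negative, with a median of 0.0202. Kif11, which separates the spindle poles, was at 0.354 ± 0.097 (2.26-fold), and Kif20a, a kinesin of cytokinesis, at 0.352 ± 0.16 (2.25-fold). The dynein light chains Dynll2 and Dynll1 were at 0.326 ± 0.020 (2.12-fold) and 0.303 ± 0.0057 (2.01-fold). Only Dynll2 passed 2-fold on each array. Kif11 was below it on the + polarity array (0.2855), and Kif20a (0.2418) and Dynll1 (0.2985) on the - polarity array. Of 11 microtubule binding and assembly genes, 1 was called, the spindle assembly factor Tpx2 at 0.416 ± 0.021 (2.61-fold), and 9 means were above 0 with a median of 0.0623.

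Markers of dividing cells lay on the same side. All 6 measured of the 7 listed were called positive, with a median of 0.428 and values from 0.393 to 1.11. Read as log2 or as natural logs, 1 of them, Rrm2, would pass 2-fold. Kif11, Kif20a and Tpx2 are themselves genes of mitosis. What part dividing cells had in the ratios of the tubulin and motor genes was not tested.

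Among the regulators of actin, 5 genes of nucleation and branching were measured and 1 was called positive, Abi2, a subunit of the WAVE complex that activates Arp2/3. Its ratio was 0.522 on the + polarity and 0.334 on the - polarity array, a mean of 0.428 ± 0.13 (2.68-fold). Its relative Abi1 was at -0.115 ± 0.065. Of 13 genes of filament binding and turnover, 0 were called. Their means were above 0 for 8 and below 0 for 5, with a median of 0.0202. Capg had the highest mean at 0.156 ± 0.087 (1.43-fold). Gsn, gelsolin, which severs and caps filaments, had the lowest mean at -0.182 ± 0.037 (1.52-fold), and Dstn, a relative of cofilin, was at -0.155 ± 0.019. Cfl1 and Dstn, both of the cofilin family, thus lay on opposite sides of 0 on each array.

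Of 8 genes of crosslinking and membrane linkage, 1 was called negative, Marcks, at -0.757 ± 0.019 (5.72-fold). Marcks binds actin and membrane lipids and is abundant in macrophages among other cells. All 6 measured of 9 listed macrophage and monocyte markers were called negative, from -0.697 to -1.05, and Marcks lay on their side. Read as log2, 2 of these 6, Adgre1 and Vcam1, would pass 2-fold and Marcks would not, while as natural logs all 6 and Marcks would. Of 6 measured of 7 listed B cell markers, 4 were called negative, with a median of -0.493. The part of these cells in the ratio of Marcks was not tested. The ezrin family members Ezr and Msn, which tie actin to the membrane, were at -0.0937 ± 0.023 and 0.0443 ± 0.078.

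The other lists had no called gene. The 8 genes of myosin regulation, a list that includes the member Mylk3, had a median of -0.000395, with Dapk1 lowest at -0.208 ± 0.025. The 9 genes of the CCT chaperonin and prefoldin, which fold actin and tubulin, had a median of 0.0466.

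**Figure D4:**
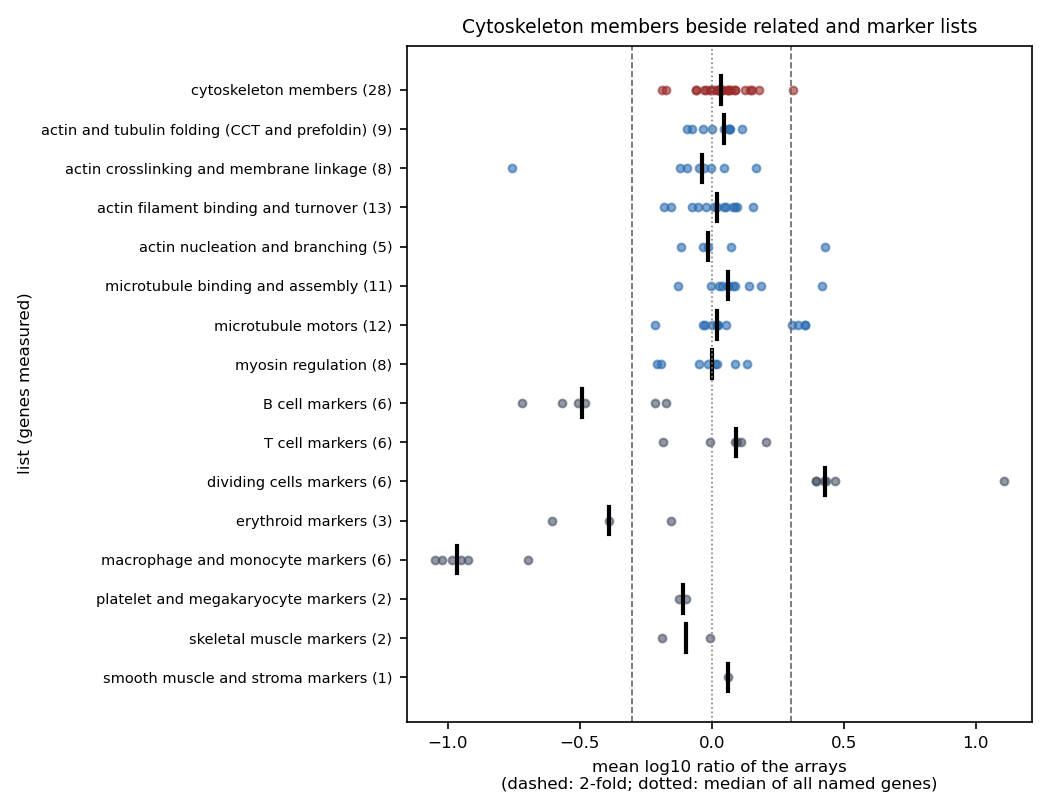
Mean log10 ratio of each gene (points) in the members (red), 7 related lists (blue) and 8 marker lists (grey), with each list's median (black bar) and its number of measured genes. The members lie between -0.188 and 0.308, while the macrophage markers lie at or below -0.697 and the markers of dividing cells at or above 0.393.

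Markers of the sorted cells and of muscle were also examined. Of 7 T cell markers, 6 were measured and 0 called, with a median of 0.0922. A ratio does not show whether a marker is present, so the labelled cell type could not be checked by level here. Of 7 smooth muscle and stromal markers, 1 was measured, Pdgfrb, with 0.279 and -0.157 on the arrays. Of 7 platelet and megakaryocyte markers, 2 were measured and 0 called. Itga2b was at -0.0970 ± 0.013. Pf4 had opposite signs on the arrays, 0.294 and -0.543, a mean of -0.125 ± 0.59. Of 6 erythroid markers, 3 were measured and 2 called negative, with a median of -0.388. Muscle cells and platelets are rich in actin and myosin, and the part of such cells in the members' ratios was not tested.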

How the data were processed

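CD5+ gamma delta T cell RNA of both genotypes was hybridised on 2 arrays with exchanged dyes. The authors deposited channel ratios on a log scale, read here as log10 ratios, with a median of -0.00284 on the + polarity and 0.00101 on the - polarity array. The base, the numerator, the scanner and the normalization are not stated in the labels. Intensities were not analysed here, so depth is unknown and precision is limited by having 2 arrays.

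The - polarity values were multiplied by -1. Of 8014 probes, 4654 carried a single gene symbol, 73 carried several (0 of them a member) and 3287 carried none in GEO's platform annotation. Probes of a gene were averaged, which gave 4331 genes. All 28 member identifiers matched the RefSeq gene table (GRCm38.p6) under the same symbol.

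Calls needed a mean of 2-fold or more and agreeing signs after turning. No test was run, because the pair is 1 replicate, and an SD over the arrays covers technical error only. Values on both arrays were to be given for every called member and every member past 1.5-fold. They were also to be given for members with a large dye component of opposite sign, for those nearest the threshold and for at least 1 member per role. Members, lists and alternatives were chosen with earlier results of these data known. A further list of genes is not reported here. The calculation was tested on simulated data and ran in Python 3.11.15 with pandas 2.3.3 and numpy 2.4.6.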

Additional observations from a re-analysis of the deposited data

How the results depend on the processing

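The count of 1 member called positive was unchanged when arrays were centred or scaled. It was also unchanged when probes were combined otherwise and without Cflar, Acta1 and Mylk3. Combining probes otherwise or leaving out those genes could not have removed Actn4, which rests on 1 probe. The count was 2 at 1.5-fold (8.43% of all genes). It was 0 at 3-fold (1.11%), with each array required past 2-fold (2.68%), as log2 (0.231%) and as natural logs (0.508%). Single arrays gave from 0 (+ polarity, 5.26% of all genes) to 1 (- polarity, 7.07%). Members called negative were 0, but 1 at 1.5-fold (9.44% of all genes), and from 0 to 2 with single arrays (5.17% and 10.1%). The 2, Acta1 and Myl10, passed on the - polarity array. The members' median of 0.0359 was 0.0265 with the probe nearest 0, 0.0108 as log2 and 0.0156 as natural logs. The 6 related genes called positive became 0 as log2, as natural logs or at 3-fold, and 3 with each array past 2-fold. Role groups with a median above 0 were 7 or 8 of 9 under every alternative that kept all members. Several of these groups hold 1 gene, including that of Cflar, which is not cytoskeletal. A change of log base cannot turn a sign, so this count does not measure how broadly the members were positive. Actn4 kept its sign throughout, but none of these alternatives could have turned it, since its 1 probe was well above 0 on both arrays. Signs of uncalled members turned for Actb, Arpc5, Capza1, Cflar, Mylk and Tubg1 with the - polarity array alone and for Actg1 and Mylk3 with the + polarity array alone. With the probe nearest 0, Tubb5 (-0.0875), Actb (-0.0449) and Actg1 (0.000505) turned, and with scaled arrays Mylk3 (-0.00130). No member shared a probe with another gene symbol, so adding such probes was not run. Agreement between the arrays is technical, and weak signals could not be told from strong ones.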
